A study of Homo sapiens with 10 samples.

Results

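Kinesins are the motor proteins that walk along microtubules, and the proteins with CENP symbols are mostly parts of the centromere, the site at which chromosomes are held by the spindle. All genes were taken whose symbol is KIF with a number and an optional letter, KIFC1 to KIFC3, or CENP with a letter, and that had a transcript cluster of their own on the array (a transcript cluster is the set of probes that is summed into 1 value). This gave 59 genes, 41 with KIF or KIFC symbols and 18 with CENP symbols, of 18377 genes measured in all. They were sorted by known role into 14 mitotic kinesins (CENPE, a kinesin itself, among them), 17 transport kinesins, 6 ciliary kinesins, 5 other kinesins, 14 constitutive centromere proteins and 3 other CENP proteins. The gene of the centromeric histone, CENPA, was not analysed here because its cluster is also assigned to a neighbouring gene.

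BEAS-2B is an established line of immortalized human bronchial epithelial cells. In the study's design, cells were kept in 0.5 μM chromate, Cr(VI), for 30 days. Cr_small and Cr_large lines were grown from their small and large soft agar colonies. Control lines came from soft agar colonies that untreated cells formed by themselves. The colonies of all these lines grew in soft agar for 3 weeks. Each group had 3 lines, each expanded from 1 colony, and the parental cells were measured once, which made 10 Affymetrix Human Gene 1.0 ST arrays. The treatment label states the chromate exposure for all 10 arrays, control and parental included, so the groups rest on the sample titles. Because the lines of a group were picked from the same exposure, p-values measure the spread between clones and not between repeated exposures.

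In a dividing cell, motors of the mitotic class build and slide the spindle, move chromosomes to its equator and carry out the last steps of cytokinesis, whereas transport kinesins carry vesicles, organelles and RNA in cells that are not dividing as well. The constitutive centromere proteins sit on chromatin marked by the histone CENP-A throughout the cell cycle and are the base on which the outer kinetochore is built before each division. Transcripts of mitotic kinesins are known to accumulate late in the cell cycle, in part through promoter elements named CHR and the CCAAT box. In RNA of a whole culture, fewer cells in mitosis and less RNA per mitotic cell cannot be told apart.

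The values below are log2 of the deposited intensities, so that a difference of 1 is a doubling. Over all clusters and arrays they ran from 4.32 to 14.05, with a median of 5.86. The number of arrays limits the precision. Group means were compared with limma over 28869 clusters, with p-values adjusted by Benjamini-Hochberg over all of them and a threshold of 0.05, and the fold is the size of the change on the linear scale. In the Cr comparison both Cr groups, with equal weight, were set against the control group. Among all clusters, 1538 were higher and 1652 lower in Cr lines, 5.33% and 5.72% of those tested, with a median log2 fold change of 0.01. Centring each array on its own median changed this split to 1163 higher and 1912 lower, so that 37.8% and not 48.2% of the calls were higher, while among the 59 genes it gave 4 higher and 9 lower. Of 6 epithelial markers, KRT8 and KRT18 passed the threshold, both higher in Cr lines, whereas KRT5, CDH1 and EPCAM lay under 5.86 on all arrays. The other marker, KRT19, measured 5.79, 6.43 and 9.23 in Cr_small lines and 10.07, 8.83 and 7.26 in Cr_large lines, against 6.07, 6.14 and 6.27 in control lines and 7.58 in parental cells, so that the Cr lines stood far apart in it, and it did not pass (log2 fold change 1.77 ± 0.82, SE; limma adjusted p = 0.235). None of the 10 measured markers of other cell types passed it.

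Of the 59 genes, 5 were higher and 9 were lower in Cr lines than in control lines, and 45 did not pass. Their median log2 fold change was 0.00. The clusters of a mean log2 intensity over 7 were called more often, 10.8% of them higher and 11.6% lower, and of the 38 kinesin and CENP genes in that range 4 were higher and 7 lower. The classes had different counts. Mitotic kinesins had 3 higher and 3 lower of 14, with a median of 0.09. Transport kinesins had 2 higher and 1 lower of 17, with a median of -0.02. Constitutive centromere proteins had 0 higher and 5 lower of 14, with a median of -0.30. None of the ciliary kinesins, the other kinesins or the other CENP proteins passed. Whether the classes differ from each other was not tested.

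**Figure D1:**
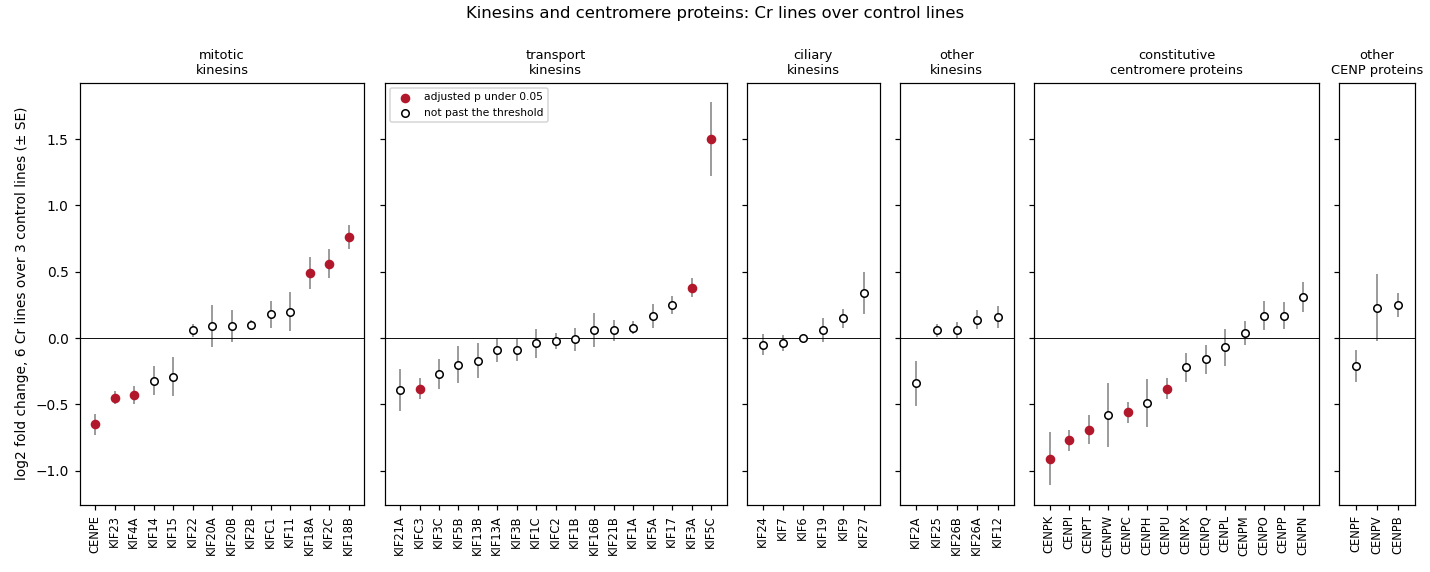
Log2 fold change of the 59 genes, the mean of 6 Cr lines over the mean of 3 control lines, with its standard error from limma; filled points have an adjusted p under 0.05. Mitotic kinesins run from CENPE at -0.65 to KIF18B at 0.76, KIF5C stands at 1.5 among transport kinesins, and the 5 filled centromere proteins all lie below 0.

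Without any test, all 6 Cr lines lay above all 3 control lines in 8 of the 59 genes, and all 6 lay below in 10. The same held for 8.85% and 7.84% of all clusters. By class, the Cr lines stood clear of the control lines in 4 mitotic kinesins above and 3 below, in 3 transport kinesins above and 1 below, and in 1 constitutive centromere protein above and 6 below. The 4 include KIF2B, under 5.86 on all arrays, whose lowest Cr line was at 5.58 and highest control line at 5.54. Among the 3 is KIF17, also dim, with 5.73 and 5.71.

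KIF18B, KIF2C and KIF18A were the 3 mitotic kinesins that rose. KIF18B, which shortens the astral microtubules, measured 8.25, 8.58 and 8.33 in Cr_small lines and 8.40, 8.37 and 8.28 in Cr_large lines, against 7.65, 7.44 and 7.73 in control lines and 7.83 in parental cells. Every Cr line was above every control line and the parental cells. The mean was 8.37 ± 0.12 in Cr lines (SD, n = 6) and 7.61 ± 0.15 in control lines (SD, n = 3), a log2 fold change of 0.76 ± 0.09 (SE) or 1.69-fold (limma adjusted p = 0.00187). A second cluster of KIF18B gave 0.84 ± 0.12 (SE; limma adjusted p = 0.00490).

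KIF2C, the depolymerase that corrects faulty attachments at kinetochores and that binds KIF18B, measured 9.88, 9.51 and 9.73 in Cr_small lines and 9.52, 9.91 and 9.55 in Cr_large lines, against 9.11, 9.07 and 9.20 in control lines and 9.33 in parental cells. The Cr lines again did not overlap with the control lines, with a log2 fold change of 0.56 ± 0.11 (SE), 1.47-fold (limma adjusted p = 0.0152). The call was lost without control line 1 (adjusted p = 0.0628) or control line 2 (0.0542). KIF18A, which damps the oscillation of chromosomes at metaphase, measured 9.01, 9.46 and 9.27 in Cr_small lines and 9.37, 9.02 and 9.39 in Cr_large lines, against 8.66, 8.92 and 8.72 in control lines. The Cr lines were just clear of the control lines, and the parental cells at 9.20 lay within the range of the Cr lines. The log2 fold change was 0.49 ± 0.12 (SE; limma adjusted p = 0.0389), a call that was lost under 10 of 20 alternatives, the omission of any control line among them, with adjusted p up to 0.142.

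KIF23, KIF4A and CENPE were the 3 that fell. KIF23, the motor of the centralspindlin complex that organizes the midzone for cytokinesis, measured 10.98, 10.93 and 11.03 in Cr_small lines and 10.92, 10.99 and 11.08 in Cr_large lines, against 11.49, 11.35 and 11.48 in control lines and 11.52 in parental cells. The 6 Cr lines lay within 0.16 of each other and under every control line, with a log2 fold change of -0.45 ± 0.05 (SE), 1.37-fold lower (limma adjusted p = 0.00173). KIF4A, a motor on chromosome arms that also limits the length of midzone microtubules, measured 9.99, 9.90 and 10.02 in Cr_small lines and 9.84, 9.94 and 10.06 in Cr_large lines, against 10.49, 10.26 and 10.41 in control lines. Here the parental cells, at 10.02, had the level of the Cr lines and not that of the control lines. The log2 fold change was -0.43 ± 0.07 (SE; limma adjusted p = 0.00644). The array also has a cluster that matches both KIF4A and its copy KIF4B, which was not used, and whether RNA of the copy reaches the KIF4A probes was not tested.

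CENPE, which carries chromosomes toward the spindle equator, measured 7.28, 7.02 and 7.28 in Cr_small lines and 7.34, 7.15 and 7.04 in Cr_large lines, against 7.85, 7.78 and 7.87 in control lines and 7.87 in parental cells. No Cr line reached the control lines, whose own range was narrow. The mean was 7.19 ± 0.14 in Cr lines (SD, n = 6) and 7.84 ± 0.05 in control lines (SD, n = 3), a log2 fold change of -0.65 ± 0.08 (SE), 1.57-fold lower (limma adjusted p = 0.00259).

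**Figure D2:**
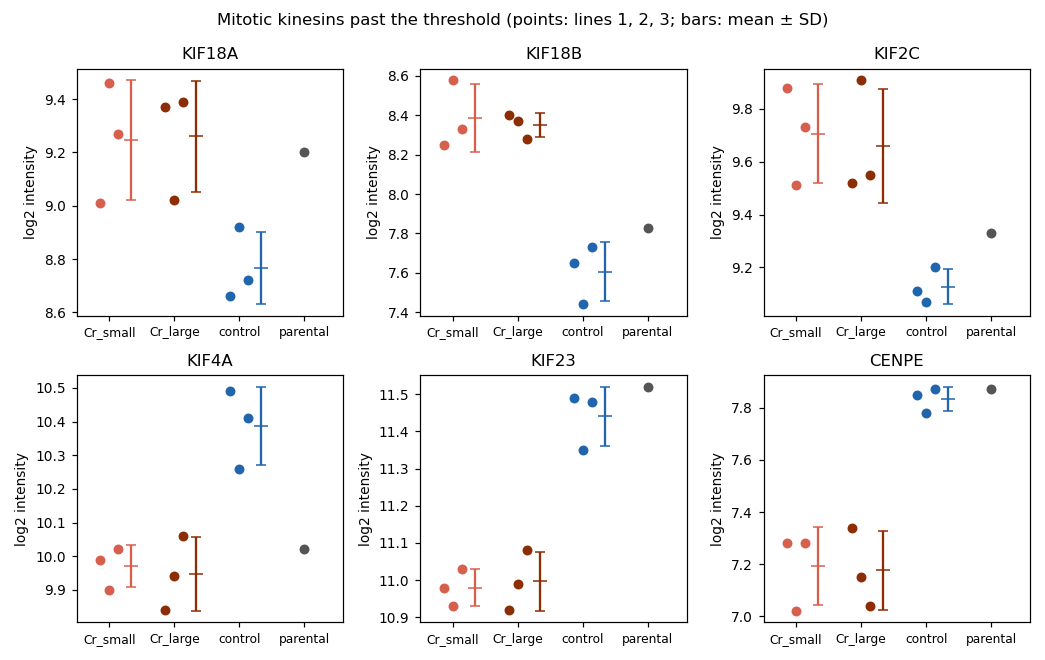
Log2 intensity of the 6 mitotic kinesins that passed the threshold, 1 point per line with the group mean ± SD beside the points, and 1 array of parental cells; each panel has its own axis, which does not start at 0. KIF18A, KIF18B and KIF2C are higher in both Cr groups than in control, KIF4A, KIF23 and CENPE are lower, and Cr_small and Cr_large overlap in all 6.

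The other 8 mitotic kinesins did not pass. KIF11, which pushes the spindle poles apart, measured 9.75, 10.16 and 9.90 in Cr_small lines and 9.90, 9.86 and 10.29 in Cr_large lines, against 9.90, 9.47 and 9.95 in control lines, so that the groups overlapped (log2 fold change 0.20 ± 0.15, SE). KIF20A, a midzone motor needed for cytokinesis, had a log2 fold change of 0.09 ± 0.16 (SE), and KIFC1, the minus-end motor that focuses spindle poles, of 0.18 ± 0.10 (SE). KIF14 at -0.32 ± 0.11 and KIF15 at -0.29 ± 0.15 (SE) lay on the other side of 0 without passing (limma adjusted p = 0.122 and 0.304). KIF2B was under 5.86 on all arrays, and the remaining KIF20B and KIF22 had log2 fold changes of 0.09 and 0.06.

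Since mitotic kinesins are a textbook case of genes with CHR and CCAAT elements, promoters of 48 of the 59 genes were taken from RefSeq (GRCh38.p14), and both strands of the 200 bases before each start were searched for TTTGAA or TTCGAA, the core forms of the CHR, and for CCAAT. All 14 mitotic kinesins had a promoter there. A CHR form was found in 6 of them (42.9%), CCAAT in 10 (71.4%) and both in 5 (35.7%), against 11.3%, 28.9% and 3.59% of all 27305 promoters. In transport kinesins the counts were 1, 3 and 1 of 12, and in constitutive centromere proteins 1, 6 and 1 of 11. With the window widened to 250 bases before and 50 after the start, a CHR form was found in 10 of 14 mitotic kinesins (71.4%), 4 of 11 constitutive centromere proteins (36.4%) and 1 of 12 transport kinesins (8.33%), against 16.6% of all promoters. A match is a description of the letters and does not show that a factor binds.

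The promoters of KIF18A and KIF18B, which rose, and of KIF23 and KIF4A, which fell, are shown with that of KIF11, which did not pass, to set the elements beside the changes. Each is the 200 bases before the start, 5′ to 3′ on the strand of the gene, with matches in capitals (ATTGG is CCAAT read on the other strand).
KIF18A, chr11:28108157-28108356, minus strand: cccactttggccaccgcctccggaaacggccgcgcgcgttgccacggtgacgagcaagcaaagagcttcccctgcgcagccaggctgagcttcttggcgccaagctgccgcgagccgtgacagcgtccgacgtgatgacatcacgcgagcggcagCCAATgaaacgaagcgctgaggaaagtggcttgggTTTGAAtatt
KIF18B, chr17:44947774-44947973, minus strand: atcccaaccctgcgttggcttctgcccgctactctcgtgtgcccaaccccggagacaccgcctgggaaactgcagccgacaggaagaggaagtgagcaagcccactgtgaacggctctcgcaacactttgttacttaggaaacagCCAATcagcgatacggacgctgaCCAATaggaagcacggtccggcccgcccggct
KIF23, chr15:69414149-69414348, plus strand: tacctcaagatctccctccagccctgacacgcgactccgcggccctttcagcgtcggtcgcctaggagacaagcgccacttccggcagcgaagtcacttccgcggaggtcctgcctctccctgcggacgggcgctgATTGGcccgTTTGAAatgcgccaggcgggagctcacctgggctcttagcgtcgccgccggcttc
KIF4A, chrX:70289904-70290103, plus strand: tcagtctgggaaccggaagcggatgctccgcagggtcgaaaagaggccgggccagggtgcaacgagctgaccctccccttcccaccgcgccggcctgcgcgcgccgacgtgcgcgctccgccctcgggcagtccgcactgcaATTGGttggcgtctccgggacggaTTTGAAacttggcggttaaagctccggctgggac
KIF11, chr10:92592930-92593129, plus strand: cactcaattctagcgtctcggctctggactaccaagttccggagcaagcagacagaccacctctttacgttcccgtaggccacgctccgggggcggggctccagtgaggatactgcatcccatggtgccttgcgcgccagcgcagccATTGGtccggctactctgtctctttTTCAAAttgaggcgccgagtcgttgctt
KIF18A has a CCAAT that begins 45 bases before the start and a TTTGAA that begins 10 before it. KIF23 and KIF4A have the same pair, with the TTTGAA at 55 and 34 bases and the CCAAT at 64 and 58 bases. KIF18B holds CCAAT at 55 and 32 bases and no CHR form in this window, though a CHR form lies in the wider window. In the wider window both elements stood in 2 of 5 genes that rose and in 3 of 8 that fell and had a promoter. Of all promoters, 6.58% held both there. In the 200 bases the counts were 1 of 5 and 3 of 8, against 3.59% of all promoters. Within the 200 bases, the pair therefore stood in the promoter of a gene that rose, of genes that fell and of one that did not pass.

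Among the constitutive centromere proteins, the 5 that passed were all lower in Cr lines. CENPI, of the complex with CENPH, CENPK and CENPM, measured 9.81, 9.88 and 9.72 in Cr_small lines and 10.04, 9.67 and 9.89 in Cr_large lines, against 10.61, 10.58 and 10.62 in control lines and 10.56 in parental cells. The control lines and the parental cells lay close together and well above all Cr lines. The log2 fold change was -0.77 ± 0.08 (SE), 1.70-fold lower (limma adjusted p = 0.00104).

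CENPC, which binds the CENP-A nucleosome and reaches out to the outer kinetochore, measured 6.24, 6.47 and 6.51 in Cr_small lines and 6.38, 6.31 and 6.43 in Cr_large lines, against 7.10, 6.92 and 6.82 in control lines and 7.07 in parental cells. Its Cr lines were all below its control lines, with a log2 fold change of -0.56 ± 0.08 (SE), 1.47-fold lower (limma adjusted p = 0.00440). Of the 11 constitutive centromere proteins with a promoter, it was the only 1 with a CHR form in the 200 bases, and the sequence is shown since it carries both elements, as that of KIF23 does.
CENPC, chr4:67545504-67545703, minus strand: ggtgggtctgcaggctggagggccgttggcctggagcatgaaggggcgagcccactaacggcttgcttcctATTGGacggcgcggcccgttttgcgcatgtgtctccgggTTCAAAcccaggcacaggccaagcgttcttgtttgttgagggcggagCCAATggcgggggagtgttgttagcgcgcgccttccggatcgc
The element is on the other strand, as TTCAAA, and lies between a pair of CCAAT matches that begin 129 and 43 bases before the start.

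CENPT, a histone-fold protein that recruits the NDC80 complex, measured 6.30, 6.27 and 6.37 in Cr_small lines and 6.81, 6.22 and 6.48 in Cr_large lines, against 7.0, 7.17 and 7.12 in control lines and 6.92 in parental cells. Cr_large line 1 was nearest to the control lines without reaching them. The log2 fold change was -0.69 ± 0.11 (SE), 1.61-fold lower (limma adjusted p = 0.00819). CENPW, which pairs with CENPT, had all 6 Cr lines, from 8.35 to 8.69, under the control lines at 8.82, 9.84 and 8.70, but did not pass (limma adjusted p = 0.179). Control line 2 was the highest of the control lines.

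CENPK measured 9.27, 9.72 and 9.04 in Cr_small lines and 9.0, 9.01 and 9.43 in Cr_large lines, against 9.89, 10.60 and 9.99 in control lines and 10.25 in parental cells. Both groups spread widely, and control line 2 was again the highest. The log2 fold change of -0.91 ± 0.20 (SE), 1.88-fold lower, had a limma adjusted p of 0.0264, which was at most 0.0732 in the 6 of 20 alternatives that lost the call, among them the omission of Cr_small line 1, Cr_large line 1 or 2, or control line 2 or 3. Its partner CENPH, with a log2 fold change of -0.49 ± 0.18 (SE), did not pass (limma adjusted p = 0.139), and CENPM of the same complex stood at 0.04 ± 0.09 (SE).

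CENPU, of the complex with CENPO, CENPP and CENPQ, measured 7.71, 7.35 and 7.41 in Cr_small lines and 7.43, 7.48 and 7.41 in Cr_large lines, against 7.78, 7.89 and 7.86 in control lines and 7.73 in parental cells. Cr_small line 1 had nearly the level of the parental cells, and the other 5 Cr lines lay lower. The log2 fold change was -0.38 ± 0.08 (SE), 1.30-fold lower (limma adjusted p = 0.0193), and it lost the threshold when any single control line was left out (adjusted p 0.0506 to 0.0790). CENPO, CENPP and CENPQ had log2 fold changes of 0.17, 0.17 and -0.16, none of which passed.

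CENPN, which reads the CENP-A nucleosome together with CENPL, was the only constitutive centromere protein with all Cr lines above the control lines. It measured 9.40, 9.87 and 9.35 in Cr_small lines and 9.43, 9.30 and 9.48 in Cr_large lines, against 9.10, 9.26 and 9.13 in control lines and 9.45 in parental cells, and it did not pass (log2 fold change 0.31 ± 0.11, SE; limma adjusted p = 0.142). CENPL was at -0.07 ± 0.14 (SE). Of the 4 genes CENPH, CENPI, CENPK and CENPM of one complex, CENPI and CENPK passed, and whether their changes differ from those of the other two was not tested.

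**Figure D3:**
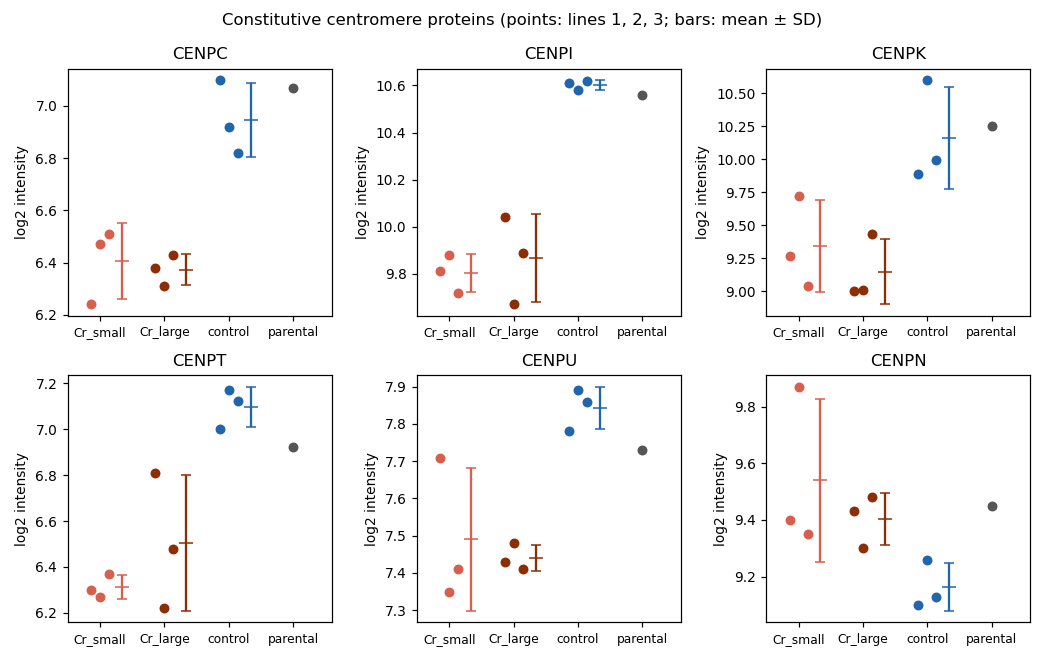
Log2 intensity of the 5 constitutive centromere proteins that passed the threshold and of CENPN, 1 point per line with the group mean ± SD beside the points, and 1 array of parental cells; each panel has its own axis, which does not start at 0. CENPC, CENPI, CENPK, CENPT and CENPU are lower in all 6 Cr lines than in the control lines, and CENPN, which did not pass, is higher.

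The other 3 CENP genes did not pass. CENPF, a large kinetochore protein that appears late in the cell cycle, had a log2 fold change of -0.21 ± 0.12 (SE), CENPB, which binds centromeric satellite DNA, of 0.25 ± 0.09 (SE), and CENPV of 0.23 ± 0.25 (SE). CENPV varied most, as Cr_small line 2 measured 7.14 and the other Cr lines 7.81 to 8.31.

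Among transport kinesins KIF5C and KIF3A rose and KIFC3 fell, and KIF5C had the largest log2 fold change of all 59 genes. KIF5C, a heavy chain of conventional kinesin that is best known from neurons, measured 7.92, 7.67 and 6.74 in Cr_small lines and 6.76, 7.07 and 6.15 in Cr_large lines, against 5.74, 5.43 and 5.47 in control lines and 5.73 in parental cells. Control and parental values lay under the median of all clusters, and every Cr line was above them. The mean was 7.05 ± 0.65 in Cr lines (SD, n = 6) and 5.55 ± 0.17 in control lines (SD, n = 3), a log2 fold change of 1.5 ± 0.28 (SE), 2.84-fold (limma adjusted p = 0.0134). Its Cr_small lines passed by themselves (1.90 ± 0.33, SE; limma adjusted p = 0.0126) and its Cr_large lines did not (1.11 ± 0.33, SE; limma adjusted p = 0.0879), but the difference between both groups, -0.78 ± 0.33 (SE) for Cr_large minus Cr_small, had a limma adjusted p of 1.00. The related heavy chains KIF5B, at -0.20 ± 0.14 (SE), and KIF5A, at 0.17 ± 0.09 (SE), did not pass.

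KIF3A, a motor of vesicles and of transport within cilia, measured 8.08, 8.21 and 7.97 in Cr_small lines and 8.12, 8.0 and 7.98 in Cr_large lines, against 7.80, 7.57 and 7.66 in control lines and 7.54 in parental cells. The groups did not overlap, and the log2 fold change was 0.38 ± 0.07 (SE), 1.30-fold (limma adjusted p = 0.0130). KIF3B, the usual partner of KIF3A, stood at -0.09 ± 0.08 (SE), KIF3C at -0.27 ± 0.11 (SE), and KIFAP3, the subunit that binds cargo to this motor, fell by 0.78 on the log2 scale (SE 0.20; limma adjusted p = 0.0461). KIFC3, a minus-end motor found at cell junctions, measured 7.82, 7.99 and 7.83 in Cr_small lines and 7.65, 7.80 and 7.75 in Cr_large lines, against 8.35, 8.04 and 8.15 in control lines. It fell by 0.38 ± 0.08 (SE; limma adjusted p = 0.0175), but the parental cells, at 7.67, lay with the Cr lines.

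The transport kinesins without a call included KIF1C at -0.04 ± 0.11, KIF1B at -0.01 ± 0.09 and KIF13A at -0.09 ± 0.09 (SE), carriers of vesicles and organelles that were chosen by their level. In all 3 of them the Cr lines overlapped with the control lines. KIF21A had the lowest value, -0.39 ± 0.16 (SE; limma adjusted p = 0.184). KIF17 had all Cr lines above the control lines without passing (0.25 ± 0.07, SE; limma adjusted p = 0.0611). When control line 3 was left out, none of the 17 transport kinesins passed, with adjusted p of 0.0607 for KIF5C, 0.0591 for KIF3A and 0.0603 for KIFC3, and without control line 1 KIFC3 did not pass either (0.0543).

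**Figure D4:**
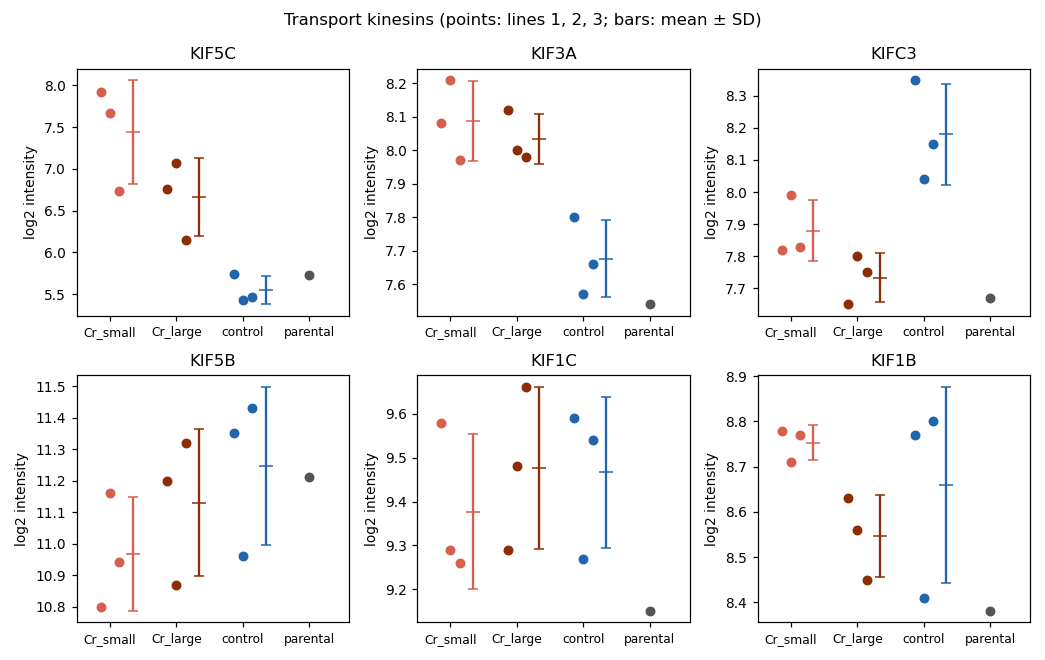
Log2 intensity of the 3 transport kinesins that passed the threshold and of KIF5B, KIF1C and KIF1B, 1 point per line with the group mean ± SD beside the points, and 1 array of parental cells; each panel has its own axis, which does not start at 0. KIF5C and KIF3A are higher and KIFC3 is lower in the 6 Cr lines than in the control lines, whereas the groups overlap in the lower row.

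Both Cr groups were also set against the control lines by themselves. In Cr_small lines 4 genes were higher and 6 lower, where 3.79% and 4.47% of all clusters were higher and lower, and in Cr_large lines 3 were higher and 9 lower, where 3.33% and 4.11% were. KIF18B, KIF2C and KIF3A were higher and CENPC, CENPI, CENPT, CENPE, KIF23 and KIF4A lower in both comparisons, which share the control lines. KIF5C passed in Cr_small lines and not in Cr_large lines. CENPK, CENPU and KIFC3 passed in Cr_large lines and not in Cr_small lines, at Cr_large log2 fold changes of -1.01, -0.40 and -0.45, beside -0.81, -0.35 and -0.30 in Cr_small lines. Several of these calls in the separate groups were not stable. In the Cr_large comparison KIF3A lost its call under 12 of 20 alternatives, CENPT under 11, CENPU under 11, KIF2C under 10, CENPK under 9, KIFC3 under 4 and KIF4A under 3. In the Cr_small comparison KIF2C lost it under 7, KIF3A and KIF4A under 5 each and KIF5C under 2. KIF3A, CENPT and KIF2C lost the Cr_large call with the replicate number as a block (limma adjusted p = 0.0585, 0.0686 and 0.0987). So did CENPK, CENPU and KIFC3 (limma adjusted p = 0.0549, 0.0762 and 0.0600). CENPC, CENPE, CENPI, KIF18B and KIF23 lost it under 1 alternative at most in either comparison. Cr_large set directly against Cr_small gave 0 of 59 genes, and 0% of all clusters, past the threshold of limma. At an unadjusted p under 0.05 there were 3 genes, KIF14, KIF5A and KIF5C, and 1266 clusters, and the methods' t-test gave 1 gene.

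The 6 Cr lines were also ranked within each gene. Cr_large line 3 had the highest value in 6 of 14 mitotic kinesins and Cr_small line 1 the lowest in 5. Their median deviations from the mean of the 6 lines were 0.1 and -0.02, and that of Cr_large line 2 was -0.05. In constitutive centromere proteins Cr_large line 1 had the highest value in 6 of 14 and Cr_large line 2 the lowest in 5. Their median deviations were 0.04 and -0.15, and that of Cr_small line 2 was 0.07. These ranks were not set beside those of all clusters, and whether any line stands apart was not tested. Over these 6 lines, the genes whose level ran most like that of a mitotic kinesin were KIF4A for KIF23 (Pearson r = 0.93 in both directions), KIF3C and KIF5B for KIF18A (0.92 and 0.89), CENPN for KIF18B (0.79), KIF9 for KIF2C (0.82) and CENPB for CENPE (0.76). These are the highest of many correlations over 6 lines that share an exposure, and are given as a description. Of the genes named, KIF9 lay under 5.86 on all arrays.

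Compared with the parental cells, which were measured on 1 array and so allow no test, the control lines measured lower in most mitotic kinesins. All 3 control lines were below the parental array in 13 of 14 mitotic kinesins, where 29.4% of all clusters were, and KIF4A was the 1 gene above it, where 28.5% were. The median difference, control minus parental, was -0.23. It was only -0.04 in CENPE and -0.08 in KIF23, and KIF2B lay under 5.86 on all arrays. Transport kinesins had 4 below and 6 above of 17, and constitutive centromere proteins 4 and 4 of 14. The 6 Cr lines were all below the parental array in 8 of 14 mitotic kinesins, in 8 of 14 constitutive centromere proteins and in 3 of 17 transport kinesins, where 19.6% of all clusters were, and all above it in 2, 1 and 4, where 23.6% were.

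KIF20A had the largest difference between control lines and parental cells. It measured 10.01, 9.79 and 10.06 in control lines, against 10.80 in parental cells, and ran from 9.78 to 10.48 in Cr lines. CENPF measured 9.21, 9.02 and 9.31 in control lines, against 9.83 in parental cells, and KIFC1 9.52, 9.18 and 9.38 in control lines, against 9.88 in parental cells. All Cr lines were below the parental cells in these 3 genes as well, with KIF20A, CENPF and KIFC1 lower by 0.76, 0.85 and 0.34 on average, whereas KIF18B and KIF2C were higher in all Cr lines than in parental cells, by 0.53 and 0.35.

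The genes that fell were not spread evenly over the chromosomes. Of the genes whose log2 intensity averaged over 7, 11.3% were higher and 12.6% lower in Cr lines, but 60.9% were lower on chromosome 15, 53.6% on chromosome 4 and 53.4% on chromosome X. Of the 59 genes, 7 lie on these 3 chromosomes, which were picked for their shares, and 6 of the 7 were lower, namely CENPC, CENPE and CENPU on chromosome 4, KIF23 on chromosome 15, and CENPI and KIF4A on chromosome X. KIF7, on chromosome 15, was the other. Of the 52 genes elsewhere, 5 were higher and 3 lower. All 3 mitotic kinesins that fell lie on chromosomes 4, 15 and X, and of the 11 on other chromosomes 3 rose and 0 fell. Of the genes averaging over 7, 19.9% were higher and 2.66% lower on chromosome 17, which holds KIF18B. The shares were 19.7% and 4.76% on chromosome 11, which holds KIF18A, and 9.24% and 8.60% on chromosome 1, which holds KIF2C. Constitutive centromere proteins had 3 of 3 lower on chromosomes 4, 15 and X and 2 of 11 on others. Their median log2 fold changes were -0.56 and -0.16.

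The neighbours of each gene, the 5 expressed genes on either side in the order of GRCh38.p14, were counted in the same comparison. Around CENPE 8 of 10 neighbours were lower, with a median of -0.50 beside its own -0.65. The counts were 8 around KIF23, 8 around CENPI, 7 around CENPU and 7 around KIF4A, with medians of -0.51, -0.46, -0.52 and -0.38. CENPC, CENPT and KIFC3 had 4, 3 and 3 lower neighbours, and CENPK had 1, with a median of -0.35 beside its own -0.91. Around KIF18B 5 of 10 neighbours were higher (median 0.43), around KIF5C 5 were higher and 1 lower (0.27), around KIF18A 3 were higher (0.29) and around KIF2C 0 (0.10). Around KIF3A 2 neighbours were higher and 1 lower, but their median was -0.20 beside its own 0.38. The part of copy number or of the chromosomal place in these changes was not tested.

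**Figure D5:**
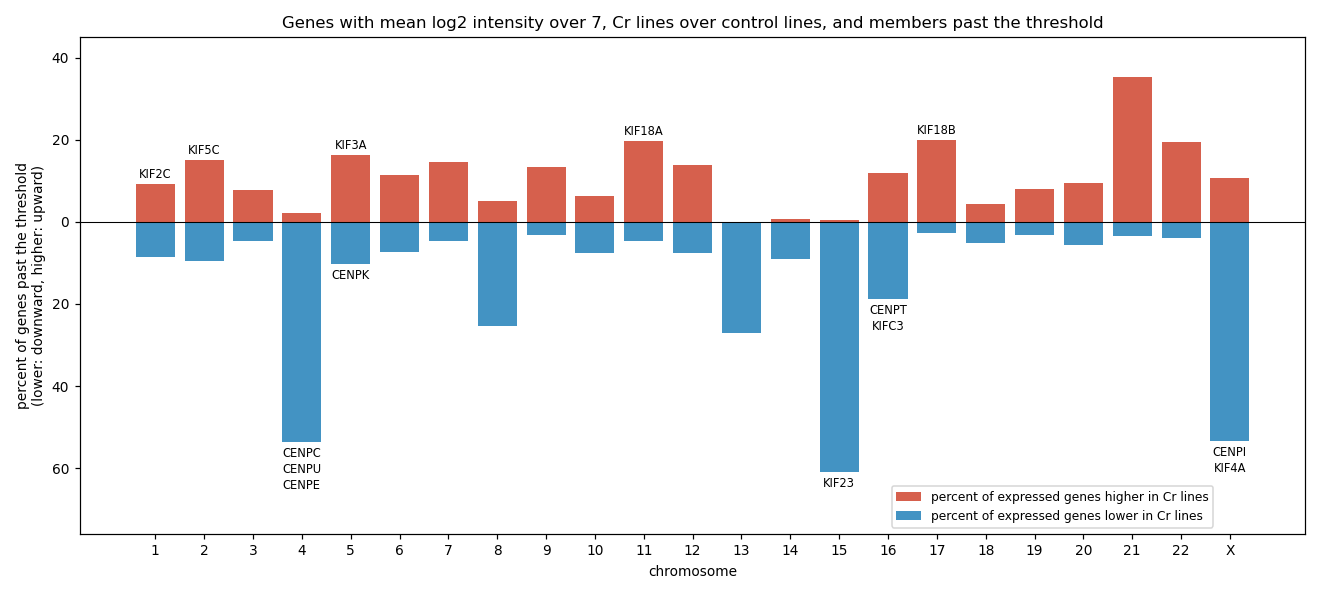
Percent of the genes averaging over 7 in log2 intensity that were higher (upward bars) or lower (downward bars) in Cr lines than in control lines, for each chromosome, with the names of the 14 kinesin and centromere genes that passed. Chromosomes 4, 15 and X have the longest downward bars and hold 6 of the 9 genes that fell.

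Partners of these proteins were counted in the same comparison, in which 5.33% of all clusters were higher and 5.72% lower. Among clusters of a mean log2 intensity over 7 the shares were 10.8% and 11.6%. Whether any partner list differs from these shares was not tested. The outer kinetochore and spindle checkpoint had 2 of 24 genes higher (8.33%) and 7 lower (29.2%), with CENPE among the 7. Their median was -0.12. ZW10, which brings dynein to kinetochores, measured 9.71, 9.75 and 9.74 in Cr_small lines and 9.77, 9.70 and 9.85 in Cr_large lines, against 9.18, 9.15 and 9.17 in control lines (log2 fold change 0.58 ± 0.04, SE; limma adjusted p = 0.000162). Its complex partner ZWILCH was lower by 0.52 on average, and so was KNL1, the platform of the checkpoint, by 0.57 (limma adjusted p = 0.0209 and 0.0113). ZW10 and ZWILCH, of the same complex, thus moved in opposite directions. The partners, here and below, were not set beside the chromosome shares above, and whether their changes follow their chromosomes was not tested.

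Spindle and cytokinesis partners of the kinesins had 3 of 19 higher and 3 lower (15.8% each), with a median of 0.10. AURKB and CDCA8, subunits of the chromosomal passenger complex that controls KIF2C and KIF23, rose by 0.43 and 0.58 (limma adjusted p = 0.0226 and 0.0107), and NUSAP1, a spindle microtubule binder, fell by 0.50 (limma adjusted p = 0.0359). Of 11 genes for CENP-A loading and cohesion 3 were higher (27.3%) and 0 lower, with a median of 0.07. MIS18A and HJURP, which prime the centromere and deposit CENP-A there, rose by 0.47 and 0.38 (limma adjusted p = 0.00446 and 0.0420), and RBBP7, a histone chaperone, by 0.35 (limma adjusted p = 0.0112).

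Regulators of late cell cycle genes had 2 of 16 higher and 2 lower (12.5% each), with a median of 0.08. RBL2, the pocket protein of the repressor complex on CHR promoters, measured 7.38, 7.48 and 7.42 in Cr_small lines and 7.24, 7.58 and 7.36 in Cr_large lines, against 8.09, 7.99 and 8.01 in control lines (log2 fold change -0.62 ± 0.07, SE; limma adjusted p = 0.00184). No Cr line reached the control lines. E2F5 and TFDP2, which pair on E2F sites, rose by 0.68 and 0.39 (limma adjusted p = 0.0351 and 0.0192). The control lines and parental cells lay under 5.86 in E2F5. By themselves its Cr_large lines passed (0.94; limma adjusted p = 0.0238) and its Cr_small lines did not (0.42; limma adjusted p = 0.249). The activators FOXM1 and MYBL2 had log2 fold changes of 0.13 and 0.10 and did not pass. Of 18 S phase genes 3 were higher (16.7%) and 0 lower, with a median of 0.17. CDT1 and CDC6, which license replication origins, rose by 0.71 and 0.66 (limma adjusted p = 0.0144 and 0.00398). CCNE1, a cyclin of S phase entry, rose by 0.27 (limma adjusted p = 0.0380).

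The minus-end motor of the cell, dynein, and its activator dynactin had 1 of 17 subunits higher (5.88%) and 4 lower (23.5%). Their median was 0.04. DYNLT1, a light chain, measured 8.63, 9.12 and 8.94 in Cr_small lines and 8.70, 8.86 and 9.15 in Cr_large lines, against 9.66, 10.54 and 9.72 in control lines, a log2 fold change of -1.07 ± 0.21 (SE; limma adjusted p = 0.0163). The light chain DYNLT3 and the dynactin subunit DCTN6 fell by 0.91 and 0.73 (limma adjusted p = 0.00563 and 0.00636). Of 17 cargo adaptors of kinesins, KIFAP3 was the 1 that fell (5.88%) and 0 rose, with a median of 0.02. Of the partners named with a call, KNL1, AURKB, NUSAP1, HJURP, RBBP7, E2F5, TFDP2, CCNE1 and KIFAP3 lost it without control line 1 (limma adjusted p from 0.0545 to 0.133) and without control line 3 (0.0572 to 0.139). HJURP and CCNE1 lost it under 12 of 20 alternatives, NUSAP1 under 10, and E2F5 and KIFAP3 under 9 each. AURKB lost it under 4, TFDP2 under 3, and KNL1 and RBBP7 under 2 each. The other partners named with a call kept it under all 20.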

How the data were processed

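RNA of 9 lines and of the parental BEAS-2B cells was measured on 1 array each. The authors made the deposited intensity values with RMA16 and quantile normalization in GeneSpring v11, on a linear scale (20.0 to 16979.5). The study's methods also name a baseline transformation, which these values do not carry. RMA16 adds a constant of 16, so that folds of dim genes come out smaller. Their log2 was taken here. The deposited table held 0 columns without a sample.

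Of 28869 clusters, 19310 had 1 gene symbol in the platform annotation, 1752 had several and 7807 had none. The genes named by 1 symbol were represented by their cluster with the highest mean, and 7 clusters that a kinesin or CENP gene shares with another gene were left out. Chromosomes, gene order and promoters came from RefSeq (GRCh38.p14). The genome build of the array's design is not given in the sources used here.

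Differences between the 4 group means were estimated with limma (version 3.58.1, R 4.3.3), with 6 residual and 1.96 prior degrees of freedom. The Benjamini-Hochberg adjustment covered all clusters, with a threshold of 0.05, and the step was tested on simulated data. Figures and counts were made with Python 3.11.15, pandas 2.3.3 and matplotlib 3.10.9.

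The genes and lists were chosen with earlier results of these data known, and lists are given as counts. Genes named in full were those past the threshold in any comparison with control, the 4 with the highest mean in each of the mitotic, transport and constitutive centromere classes, KIF5C and CENPK, the 3 farthest from the parental array in control lines, and up to 3 called genes of each partner list. Other genes are named as members of a class or complex after their values were seen. Likeness was taken over the 6 Cr lines and not over all 10 arrays, because the groups separate.

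Alternatives were the methods' t-test, unadjusted and after Benjamini-Hochberg, limma with trend and robust moderation, only the groups compared, no clusters of the dimmest 25%, only clusters with 1 symbol, renewed quantile normalization, centring on array medians, log2 after subtraction of 16, an average over all clusters of a gene, the line number as a block, and each line left out in turn.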

Additional observations from a re-analysis of the deposited data

Results flagged for a closer look

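Among the 6 Cr lines, 24 kinesin and centromere genes were checked for 1 line far from the others, and 2 had such a line, where chance flags about 1 in 20 groups. CENPN measured 9.87 in Cr_small line 2, and the nearest other line had 9.48, a gap of 0.687 of the whole range. CENPU measured 7.71 in Cr_small line 1, and the nearest other line had 7.48, a gap of 0.626 of the range.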

How the results depend on the processing

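Leaving out 1 line at a time gave 8 to 14 genes past the threshold in the Cr comparison (14 with all lines), 6 to 12 for Cr_small (10) and 5 to 11 for Cr_large (12), 0 to 0 for Cr_large against Cr_small, 4 to 6 mitotic kinesins (6), 0 to 4 transport kinesins (3) and 3 to 6 constitutive centromere proteins (5). The counts were lowest without control line 3, with 8, 6 and 5 genes in the 3 comparisons with control, 0 transport kinesins and 3 constitutive centromere proteins, and without control line 2 there were also 3 of these. Calls over all clusters fell with it, to 734 higher and 995 lower in the Cr comparison, beside 1538 and 1652 with all lines. The Cr_large count was 7 without Cr_large line 1 or 2 or control line 1 or 2. The methods' t-test gave 17 genes unadjusted and 2 after Benjamini-Hochberg for Cr_small, 0 after Benjamini-Hochberg for Cr_large, and 1 unadjusted for Cr_large against Cr_small. The cause was not tested. Same-numbered lines of different groups did not deviate together (residual correlations of -0.145 to 0.0984 in 9 pairs), so the numbers were not taken as a pairing, and with the replicate number as a block 7 genes passed for Cr_large.

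No result reversed under the 20 alternatives. CENPC, CENPE, CENPI, CENPT, KIF18B, KIF23 and KIF4A passed in the Cr comparison under all of them, and the other 7 of 14 lost the call under at least 1. KIF2C lost it without control line 1 or 2 (adjusted p = 0.0628 and 0.0542), KIFC3 without control line 1 or 3 and, at adjusted p = 0.0503, under the block, and KIF5C after the t-test with Benjamini-Hochberg (0.0677) and without control line 3 (0.0607). With 3 lines a group and 1 exposure behind them, small changes may have been missed, and values near the lower end of the scale, as in KIF5C of control lines, understate folds.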
